A study of Mus musculus with 8 samples.

Results

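The core loop of the circadian clock was followed through 10 genes in brown adipose tissue, a fat depot that makes heat: Arntl (also called Bmal1), Clock, Npas2, Per1, Per2, Per3, Cry1, Cry2, Nr1d1 and Nr1d2. The genes were taken by symbol from the deposited array table, where each had 1 transcript cluster (a set of probes spread over the gene), so they are 10 of the 21759 genes tested. The arrays came from male C57BL/6 mice in 2 groups of 4, labelled NCD, which the labels do not spell out, and HFD, which the series title gives as high-fat diet. The question named there is what that diet does to gene expression in the tissue. Age, length of feeding, housing light cycle and the hour at which tissue was taken are not stated in the labels. The labels also do not say whether the 4 arrays of a group came from separate animals, so the spread behind each p-value is that between these samples and may be technical.

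In the loop, the proteins of Arntl and Clock, or of Clock's relative Npas2, bind as pairs to short DNA sites called E-boxes and switch on the Per, Cry and Nr1d genes. PER and CRY proteins then block that pair, and the NR1D proteins (also called REV-ERB) repress Arntl and other genes through sites called ROREs, so that Arntl on one side and Per and Nr1d on the other peak at opposite times of day. Brown fat carries such a clock, and REV-ERB alpha, the product of Nr1d1, is known as a repressor of Ucp1 there.

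Promoter letters are shown for 5 members in whose windows a known clock element was found, to put the element types of both arms beside the values. Windows of 300 bases, from 250 before to 50 after each start site, were taken from RefSeq (GRCm38.p6), where 9 of the 10 genes matched with 13 windows in all. Per2 had no window and was not searched. Both strands were searched for the E-box CACGTG, its variant CACGTT, the D-box TTATGTAA, the RORE core TAGGTCA and the cAMP element TGACGTCA, motifs that do not contain one another. In the stretches below, written 5′ to 3′ on the gene's strand, capitals mark a match (AACGTG is CACGTT on the other strand).
Per3: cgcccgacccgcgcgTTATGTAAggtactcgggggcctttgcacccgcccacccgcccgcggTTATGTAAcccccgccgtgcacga
Nr1d1: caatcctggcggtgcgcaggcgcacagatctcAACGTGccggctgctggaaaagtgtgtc
Cry1: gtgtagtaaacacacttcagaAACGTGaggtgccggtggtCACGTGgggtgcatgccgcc
Per1: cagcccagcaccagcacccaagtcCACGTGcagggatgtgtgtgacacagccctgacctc
Arntl: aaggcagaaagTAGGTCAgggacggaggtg

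The Per3 stretch, chr4:151044800-151044885 on the minus strand, holds a pair of D-boxes that begin at -205 and -158 from the start site. Among the 9 members searched, which leave out Per2, Per3 was the only one with a D-box, where 0.938% of all 32851 windows hold one. D-boxes are the sites through which the output factors Dbp, Tef and Hlf activate and Nfil3 represses. The Arntl stretch, chr7:113207530-113207559 on the plus strand, holds the RORE core just after one of its start sites. Arntl was the only member with it among the 9 searched, where 2.61% of all windows hold one. The Cry1 stretch, chr10:85185095-85185154 on the minus strand, holds an E-box and a variant, and Per1, chr11:69098759-69098818 on the plus strand, an E-box. E-boxes occur in 7.15% of all windows and the variant in 4.69%. Nr1d1, chr11:98775378-98775437 on the minus strand, has the variant, as does Cry2. The windows of Nr1d2, Clock and Npas2 held none of these letters. A match is a description of the letters and shows no binding.

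The arrays were much alike. Array medians lay between 5.91 and 5.99, and the clusters of an array had a standard deviation of 1.69 to 1.82, widest on NCD 3 (1.82), NCD 2 (1.79) and HFD 4 (1.78). Pearson correlations between arrays, across clusters that are not independent, lay between 0.976 and 0.991. Ucp1, the uncoupling protein that defines brown fat, had a log2 intensity of 12.90 ± 0.05 in NCD and 12.85 ± 0.05 in HFD (both SD, n = 4; limma adjusted p = 0.945), near the highest value of any array (13.79). Of the 10 brown adipocyte markers, Ucp1 among them, 9 had lower means in HFD and 1 passed the test: Elovl3, a fatty acid elongase of brown fat, fell by 1.39 ± 0.20 on the log2 scale (SE, limma adjusted p = 0.00673). The mean over the 10 markers ranged from 8.97 to 9.28 in NCD and from 8.77 to 8.97 in HFD. Skeletal muscle markers stood out on single arrays of both groups: the mean over 10 of them was 9.04 on NCD 1 and 9.64 on HFD 3, against 5.27 to 5.76 on the other arrays.

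With the high-fat diet, means of Per3, Nr1d1 and Nr1d2 were higher, those of Arntl and Cry1 were lower, and those of the other 5 genes lay closer together, but no clock gene passed the test over all genes. Of the 10 genes, 0 had an adjusted p under 0.05 in limma, a linear model fitted to all 21759 genes, against 0.142% of all genes (31 genes, 0.00919% called higher in HFD and 0.133% lower). The same count was 0 with the methods' t-test after adjustment, which called 0 of all genes. At an unadjusted limma p under 0.05 there were 5 clock genes where 7.24% of all genes were, 3 higher in HFD where 2.73% of all genes were, and 2 lower where 4.52% of all genes were. The methods' t-test, run here with equal variances, put Arntl and Nr1d2 under an unadjusted p of 0.05. That was 2 of the 10 clock genes, against 6.96% of all genes. The median difference over the 10 genes was 0.11 on the log2 scale, beside -0.01 over all genes. Without HFD 4 it was 0.0021, without HFD 1 it was 0.03 and without HFD 3 it was 0.16. The median size of a difference regardless of sign was 0.22, beside 0.10. All differences below are HFD minus NCD in log2 intensity, with the moderated standard error.

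**Figure D1:**
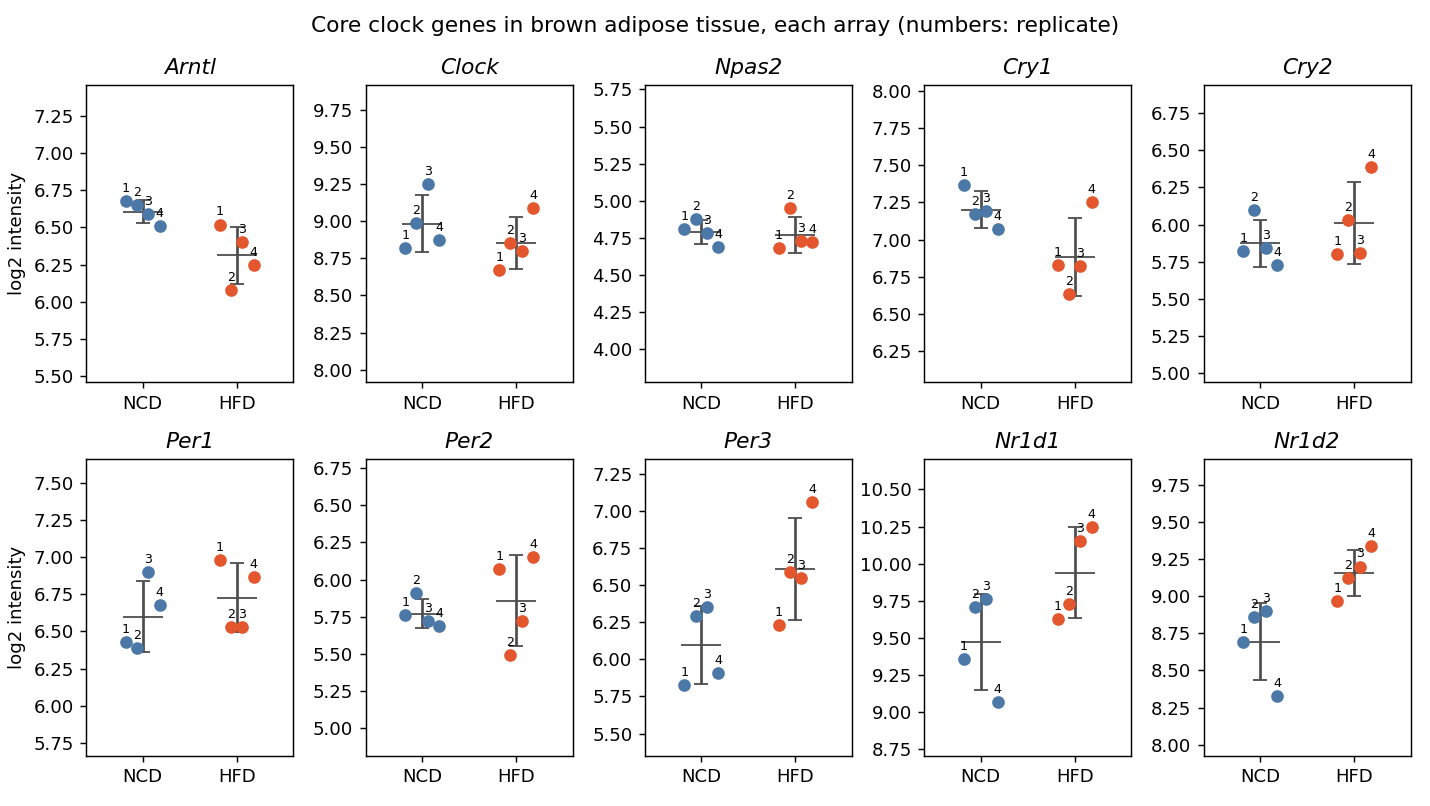
Log2 intensity of the 10 core clock genes on each array, with the replicate number beside each point, and the group mean and standard deviation as bars (4 arrays per group). Every panel spans 2 log2 units. The 4 HFD points of Nr1d2 (8.97 to 9.34) sit above the 4 NCD points (8.33 to 8.90), while in the other 9 panels the groups overlap.

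Of the loop, 5 genes were measured close to the level of genes that fat is not known to use. As a stand-in for unexpressed genes, 1119 olfactory receptor genes had a median log2 intensity of 4.50 and a 95th percentile of 6.46. Clock, Per1, Cry1, Nr1d1 and Nr1d2 had means over all arrays above that percentile, and Arntl, Npas2, Per2, Per3 and Cry2 did not. Of all 21759 genes, 14130 did not either. Arntl, with a mean of 6.46 against an unrounded percentile of 6.4639, fell just under it. For these 5 dim genes a difference on the array may understate the difference in RNA. No order of levels between genes is drawn, because each cluster has its own probes.

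Among the activators, Arntl had the larger difference. Its log2 intensity was 6.68, 6.65, 6.59 and 6.51 on NCD 1 to 4 and 6.52, 6.08, 6.40 and 6.25 on HFD 1 to 4. The groups overlapped only through HFD 1, which lay just above NCD 4, and the HFD arrays were more spread out (SD 0.19, n = 4) than the NCD arrays (SD 0.08, n = 4). The difference was -0.30 ± 0.12 (SE, limma adjusted p = 0.614), and an exact two-sided permutation test over the 70 ways to assign 4 and 4 arrays, whose smallest possible p is 0.0286, gave p = 0.0571 unadjusted. The 95% interval of the HFD to NCD ratio, which is not adjusted for the number of genes, ran from 0.684 to 0.971.

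Clock, the histone acetyltransferase partner of Arntl, was 8.82, 8.99, 9.25 and 8.87 on NCD 1 to 4 and 8.67, 8.85, 8.80 and 9.09 on HFD 1 to 4. Each group held 1 high array, NCD 3 and HFD 4, and the rest lay among each other. The difference was -0.13 ± 0.13 (SE, limma adjusted p = 0.880), with a ratio interval of 0.755 to 1.11. Npas2, which can take the place of Clock, had a difference of -0.02 (limma adjusted p = 0.987, ratio interval 0.839 to 1.16). Its arrays ranged from 4.69 to 4.88 in NCD and from 4.68 to 4.95 in HFD, close to the olfactory median, and a difference was not detectable at this signal.

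The Per genes, whose products form the repressive complex with the cryptochromes, did not behave alike. Per3 was 5.83, 6.29, 6.35 and 5.91 on NCD 1 to 4 and 6.23, 6.59, 6.55 and 7.06 on HFD 1 to 4. HFD 4 was the highest and HFD 1 fell within the NCD range. The difference was 0.51 ± 0.17 (SE, limma adjusted p = 0.473, exact permutation p = 0.0857), a 1.43-fold higher HFD mean, for a gene whose mean lies under the olfactory percentile. Per1, which also answers directly to glucocorticoids and cAMP, was 6.43, 6.39, 6.90 and 6.68 in NCD and 6.98, 6.53, 6.53 and 6.87 in HFD. Both groups held a high and a low pair of arrays, and the difference was 0.13 ± 0.14 (SE, limma adjusted p = 0.898). Per2 differed by 0.09 ± 0.14 (SE, limma adjusted p = 0.932). It was narrow in NCD (5.69 to 5.91) and wide in HFD, where HFD 1 (6.07) and HFD 4 (6.15) lay above all NCD arrays and HFD 2 (5.49) below them. The ratio intervals were 0.882 to 1.35 for Per1 and 0.861 to 1.31 for Per2.

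The cryptochromes, the stronger repressors of the loop, had means on opposite sides. Cry1 was 7.37, 7.17, 7.19 and 7.07 on NCD 1 to 4 and 6.83, 6.63, 6.82 and 7.25 on HFD 1 to 4. Of the HFD arrays 3 lay below every NCD array, and HFD 4 lay above all NCD arrays but 1. The difference was -0.32 ± 0.14 (SE, limma adjusted p = 0.648, exact permutation p = 0.114). Without HFD 4 it was -0.44 (limma adjusted p = 0.369). Cry2 ranged from 5.73 to 6.10 in NCD and from 5.80 to 6.39 in HFD, where HFD 4 was again the highest, and differed by 0.14 ± 0.14 (SE, limma adjusted p = 0.888).

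Nr1d1 and Nr1d2, the nuclear receptors that close the second feedback onto Arntl, had nearly equal differences. Nr1d2 was 8.69, 8.86, 8.90 and 8.33 on NCD 1 to 4 and 8.97, 9.12, 9.20 and 9.34 on HFD 1 to 4. It was the only 1 of the 10 genes whose groups did not overlap, where 3.83% of all genes were separated 1.33% with HFD higher and 2.5% with HFD lower. The difference was 0.46 ± 0.14 (SE, limma adjusted p = 0.371, exact permutation p = 0.0286), a 1.38-fold higher HFD mean with a ratio interval of 1.12 to 1.69.

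Nr1d1 was 9.36, 9.71, 9.76 and 9.07 on NCD 1 to 4 and 9.63, 9.73, 10.15 and 10.25 on HFD 1 to 4. HFD 3 and HFD 4 lay above all NCD arrays, while HFD 1 and HFD 2 lay among the higher NCD arrays. The difference was 0.47 ± 0.17 (SE, limma adjusted p = 0.558, exact permutation p = 0.143). NCD 2 and NCD 3, the higher NCD arrays of Nr1d1, Nr1d2 and Per3, were also the NCD arrays of widest overall spread. When every array was set to equal median and spread, Nr1d1 ran from 9.16 to 9.61 in NCD and from 9.78 to 10.13 in HFD without overlap, and its limma adjusted p was 0.168. The groups of Arntl, Cry1 and Per3 still overlapped. The share of all genes separated after this scaling was not counted, so the separation of Nr1d1 has no background beside it. Without NCD 2 and NCD 3 the differences were 0.73 for Nr1d1, 0.65 for Nr1d2 and 0.74 for Per3, the adjusted p being 0.363, 0.258 and 0.365. Leaving out the higher NCD arrays of these genes raises the differences by construction. HFD 4, also of wide overall spread, was the highest HFD array of each. Without it the differences were 0.36 for Nr1d1, 0.40 for Nr1d2 and 0.36 for Per3 (limma adjusted p = 0.698, 0.586 and 0.644).

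In the authors' deposited table the same genes carried a fold of 1.38 with p = 0.03 for Nr1d2, 1.38 with p = 0.08 for Nr1d1, 1.43 with p = 0.06 for Per3, -1.23 with p = 0.05 for Arntl and -1.25 with p = 0.09 for Cry1, a negative fold standing for a lower HFD level. These p-values are not adjusted.

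**Figure D2:**
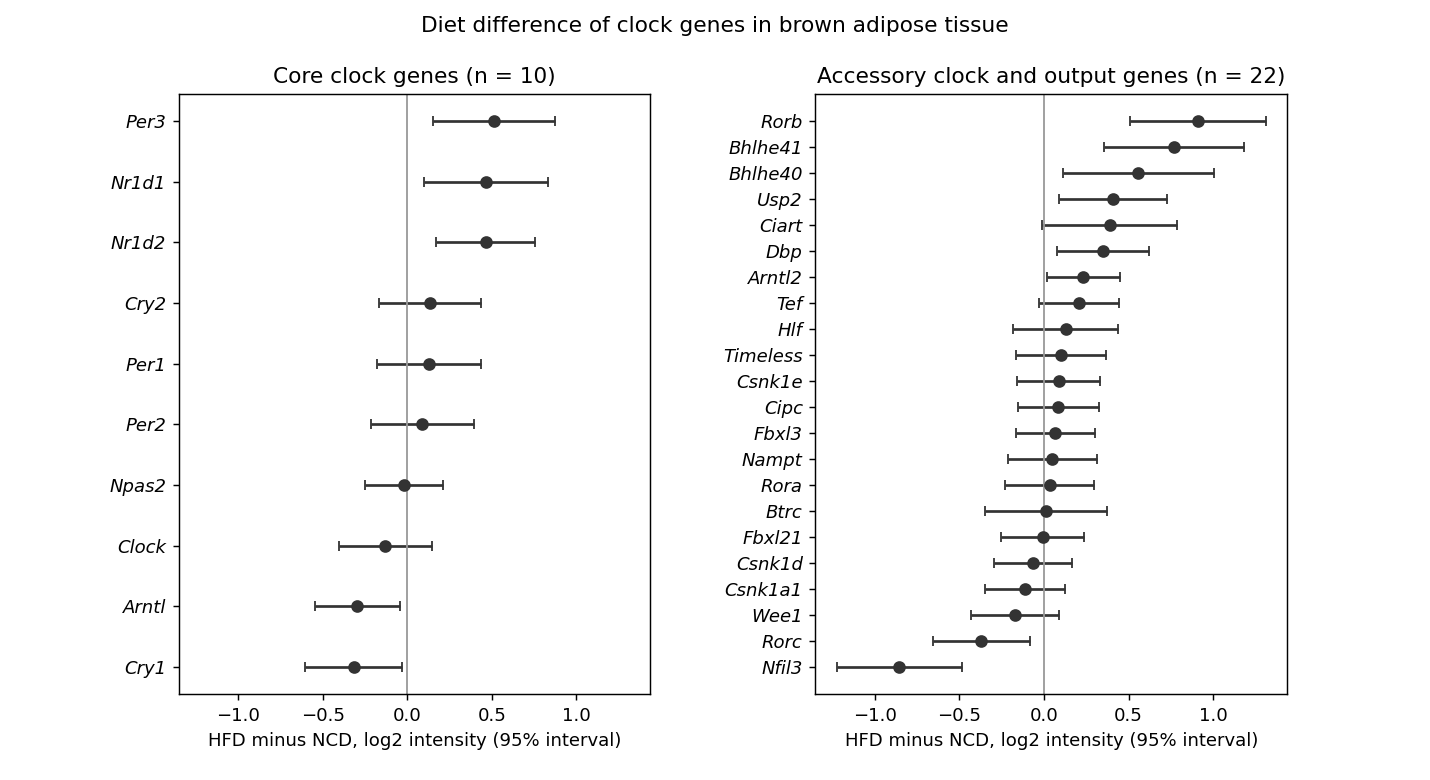
Difference of HFD minus NCD in log2 intensity with its 95% interval, for the 10 core clock genes (left) and 22 accessory clock and output genes (right), both panels on the same axis. The intervals of Per3, Nr1d1, Nr1d2, Arntl and Cry1 exclude 0 before adjustment, and no gene in either panel had an adjusted p under 0.05.

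The arms of the loop peak at opposite times of day, so they were set side by side. Each gene was centred on its mean over the 8 arrays and averaged by arm. With 4 arrays in each group, the group means of an arm then mirror each other around 0 by construction. The activator-side arm held Arntl, Clock, Npas2 and Cry1, and the E-box arm held Per1, Per2, Per3, Nr1d1 and Nr1d2. The arm names are shorthand and do not rest on the windows searched. Cry1 codes for a repressor and its window holds an E-box, while the windows of Per3 and Nr1d2 held no E-box or variant. Cry1 is known to answer to both E-boxes and ROREs and to peak later than the Per genes, and Cry2, known for a weak rhythm, was left out. The activator-side arm averaged 0.10 ± 0.07 in NCD and -0.10 ± 0.09 in HFD (both SD, n = 4). The E-box arm averaged -0.17 ± 0.18 in NCD and 0.17 ± 0.19 in HFD (both SD, n = 4). Each arm by itself overlapped between groups, the first where HFD 4 lay above NCD 4 and the second where NCD 3 lay above HFD 2.

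The first arm minus the second was 0.40, 0.18, 0.12 and 0.34 on NCD 1 to 4 and -0.21, -0.17, -0.25 and -0.41 on HFD 1 to 4. The groups did not overlap, with a mean difference of -0.52 on the log2 scale. The centring places 0 midway between the group means, so the opposite signs of the group means carry no information. No p is attached to this value, since the genes were chosen with results of these data known. With Cry1 left out and Cry2 added to the E-box arm, the difference was -0.45 and the arrays again did not overlap. With Cry1 and Cry2 both in the E-box arm, an alternative chosen after seeing the data, it was -0.36, also without overlap. Leaving out 1 array at a time gave differences of -0.57 to -0.47. The hour of sampling is not recorded, so whether the groups were sampled at the same clock time cannot be told from these data, and its part in the difference was not tested.

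**Figure D3:**
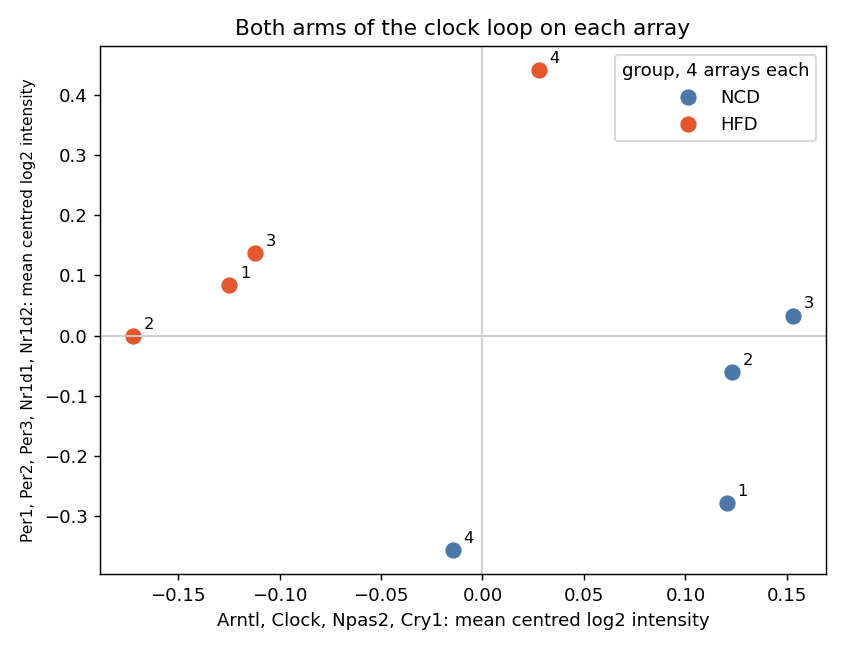
Mean centred log2 intensity of the activator-side arm (horizontal axis) against that of the E-box arm (vertical axis) on each of the 8 arrays, numbered by replicate. The NCD arrays sit toward the lower right and the HFD arrays toward the upper left, with HFD 4 highest on the E-box arm (0.44) and NCD 4 lowest (-0.36).

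From array to array, Nr1d1 and Nr1d2 moved together. Their Pearson r over the 8 arrays was 0.95 (exact permutation p = 0.000422, adjusted p = 0.0190 over the 45 pairs of clock genes), and Spearman's rho was 0.88 (exact permutation p = 0.00724, adjusted p = 0.109). Without the arrays farthest from the Nr1d1 median, NCD 4 and HFD 4, r was 0.85. As deviations from the group means, which removes the diet difference, r was 0.93 (exact permutation within groups p = 0.00174, the smallest that test can give, adjusted p = 0.0391). After every array was set to equal median and spread, an alternative chosen after seeing the data, r was 0.96 (adjusted p = 0.0368).

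Per3 had a high r to both of them, 0.90 to Nr1d1 and 0.89 to Nr1d2, but neither passed (exact permutation adjusted p = 0.0610 for each). Spearman's rho was 0.90 and 0.88, each with an adjusted p of 0.109. As deviations from the group means these were 0.82 and 0.78 (adjusted p = 0.281 for both). Arntl and Per3 had the most negative r of any pair (-0.71, rho -0.76, exact permutation p = 0.0471 and 0.0368, adjusted p = 0.424 and 0.414), and r was -0.40 within groups. Clock and Per3 were unlike this: r was 0.35 over the arrays but 0.93 as deviations from the group means (adjusted p = 0.0391), and both were highest on NCD 3 and HFD 4, arrays of wide overall spread. Without the arrays farthest from the Clock median, the r of the values themselves, 0.35 over all arrays, was -0.01. The r of the deviations was not computed without those arrays.

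Within the E-box arm all 10 pairs had a positive r (0.18 to 0.95, median 0.34), and 8 of 10 did as deviations from the group means (median 0.26). Within the activator-side arm 4 of 6 pairs were positive (median 0.10), and 3 of 6 as deviations (median -0.12). Between the arms, 10 of 20 pairs were positive and 10 negative, the median being -0.01. As deviations from the group means, 17 of the 20 pairs between the arms were positive (median 0.30). With the diet difference removed, the median between the arms was thus no lower than that within the E-box arm. Over the 8 arrays the Nr1d1 and Nr1d2 pair was the only 1 of the 45 to pass by Pearson's r, and 0 passed by rank correlation. As deviations 2 passed, that pair and Clock with Per3.

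**Figure D4:**
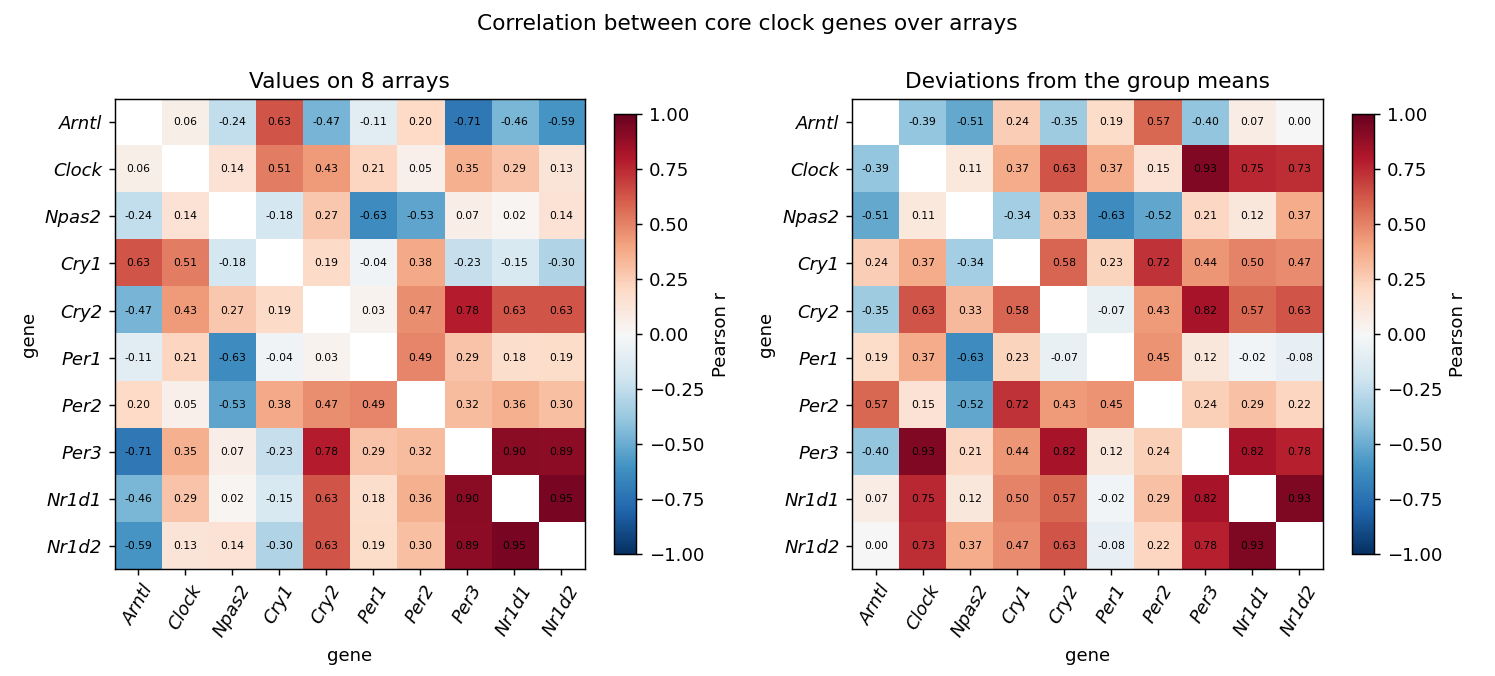
Pearson correlation between each pair of core clock genes over the 8 arrays (left) and of their deviations from the group means (right), on a scale from -1 to 1. The dark block at the lower right holds Per3, Nr1d1 and Nr1d2 (0.89 to 0.95 at left), and the negative cells of Arntl with them at left (-0.71 to -0.46) are weaker or near 0 at right.

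Nr1d1 and Per3 were also among the genes that varied most between arrays of the same group. Their residual standard deviation was 0.31 for both, above 94.7% and 93.8% of all genes. Per1 (78.5%), Per2 (76.1%), Cry2 (74.8%), Nr1d2 (69.6%), Cry1 (65.4%) and Clock (53.7%) followed, with Arntl (29.2%) and Npas2 (8.5%) among the steadier genes. The median residual standard deviation was 0.22 over the clock genes and 0.18 over all genes.

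The wider clock network was read from 22 accessory and output genes, 0 of which passed over all genes in limma, where 0.142% of all genes did. At an unadjusted p under 0.05, 6 were higher and 2 lower, where 2.73% and 4.52% of all genes were. Their median difference was 0.09, 16 means were higher and 6 lower. The groups did not overlap for 3 of the 22, 2 with HFD higher and 1 lower, where 3.83% of all genes were separated. These were Nfil3, Rorb and Arntl2. Arntl2 ran from 6.05 to 6.16 in NCD and from 6.28 to 6.40 in HFD, under the olfactory percentile (difference 0.23, limma adjusted p = 0.663). Nfil3, the D-box repressor, had the lowest p: it was 8.63, 8.45, 9.10 and 8.24 on NCD 1 to 4 and 8.11, 7.59, 7.54 and 7.76 on HFD 1 to 4, without overlap. The difference was -0.86 ± 0.17 (SE, limma adjusted p = 0.0817), a 1.81-fold lower HFD mean. Nfil3 passed without NCD 4 (limma adjusted p = 0.0384), with a variance trend and robust prior (0.0286) and when dim genes were left out (0.0416). It did not pass in any other alternative. Its limma adjusted p rose to 0.248 without HFD 2, 0.214 without HFD 4 and 0.365 without NCD 2 and NCD 3.

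Rorb, a RORE-binding receptor, was separated the other way, at 4.69 to 5.44 in NCD and 5.61 to 6.37 in HFD (difference 0.91 ± 0.19, SE, limma adjusted p = 0.0845). All its values lie under the olfactory 95th percentile of 6.46. Rorb passed without NCD 4 (limma adjusted p = 0.0453) and with a variance trend and robust prior (0.0442). It did not pass in any other alternative. Its limma adjusted p rose to 0.341 without NCD 2, 0.290 without HFD 1 and 0.427 without NCD 2 and NCD 3. Bhlhe41, also called Dec2, an E-box repressor, ranged from 5.78 to 6.55 in NCD and from 6.39 to 7.31 in HFD (difference 0.77 ± 0.19, SE, limma adjusted p = 0.220).

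Genes that answer to signals acting on Per1 and Per2 from outside the loop were counted in the same way. Since 0.142% of all genes were called, a count of 0 says little for lists this short. Of 12 glucocorticoid-responsive genes, which include Per1, 0 passed in limma and 1 was under an unadjusted p of 0.05, where 7.24% of all genes were. Their median difference was 0.02, and with 1 array left out it ran from -0.07 (without NCD 1) to 0.11 (without NCD 3). Zbtb16, a transcription factor induced by glucocorticoids, differed by 0.82 ± 0.28 (SE, limma adjusted p = 0.490), and it passed without NCD 3 (1.17, adjusted p = 0.0199), the NCD array on which it was highest (9.10, the others 7.51 to 7.95). Errfi1, an inhibitor of EGF receptor signalling, differed by -0.40 (adjusted p = 0.770) and Pdk4, which inhibits pyruvate dehydrogenase, by -0.18 (adjusted p = 0.825). Of 11 immediate early genes 0 passed and 0 were under an unadjusted p of 0.05, where 7.24% of all genes were. Their median difference was 0.03. Their lowest adjusted p values were 0.773 for Btg2, an antiproliferative gene (difference 0.19), 0.774 for Egr1, a zinc finger factor (0.50), and 0.839 for Junb, an AP-1 subunit (-0.19).

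By likeness to Arntl over the 8 arrays, 6262 protein-coding genes above the olfactory percentile were compared. The highest r belonged to Upf3a, a factor of nonsense-mediated decay (0.91), Mthfs, an enzyme of folate metabolism (0.90), and Usp6nl, a GTPase-activating protein (0.89). The lowest belonged to Iws1, a transcription elongation factor (-0.94), Gpx3, a secreted glutathione peroxidase (-0.94), and Cabp2, a calcium-binding protein (-0.93). These are extremes of many genes over few arrays and are given as a description. Among the clock genes, Cry1 had the highest r to Arntl (0.63), above 94.0% of the compared genes, and Per3 the lowest (-0.71), below 98.6%. Nfil3 had an r to Arntl of 0.79, above 99.2% of them.

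Markers of other cells varied beside these values. The mean over 8 macrophage markers lay between 6.41 and 6.93 in NCD and between 6.56 and 7.04 in HFD, with 7 of 8 gene means higher in HFD. The 6 endothelial markers ranged from 8.60 to 8.94 in NCD and from 8.77 to 9.06 in HFD, highest on NCD 3 and HFD 4. The mean over 5 white fat markers was 7.72 to 8.08 in NCD and 8.07 to 8.26 in HFD, and 2 of the 5, Lep and Nnat, were separated between the groups with HFD higher, where 1.33% of all genes were. Of the 6 fibroblast and progenitor markers all 6 means were higher in HFD, the array means ranging from 7.82 to 8.11 in NCD and from 7.96 to 8.27 in HFD. In these 4 lists 0 markers had an adjusted p under 0.05, where 0.142% of all genes did. The 4 blood markers all had lower means in HFD (array means 7.68 to 8.13 in NCD and 7.61 to 7.77 in HFD, 0 past the threshold), and the brown adipocyte markers were lower as given above. The part of these cell markers in the clock values was not tested. In whole tissue, fewer cells of a type and less RNA per cell cannot be told apart. With NCD 1 and HFD 3 left out, where muscle markers were high, Nr1d2 differed by 0.45, Per3 by 0.44, Nr1d1 by 0.36, Arntl by -0.30 and Cry1 by -0.24, with adjusted p between 0.486 and 0.701.

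The coordinates in the file carry no genome build, and the values below are as deposited. Nr1d2 lies on chromosome 14 from 19036571 to 19071609, Nr1d1 on chromosome 11 from 98629246 to 98636556, Per3 on chromosome 4 from 150378821 to 150418698, Arntl on chromosome 7 from 120350979 to 120457640 and Cry1 on chromosome 10 from 84594445 to 84647799. The span of Nr1d1 shares 1075 bases with that of Thra, the thyroid hormone receptor gene on the opposite strand, whose difference was 0.13 (limma adjusted p = 0.901). A cluster annotated as Ube2n lies on the strand of Clock and shares 635 bases of its span (difference -0.12, limma adjusted p = 0.910). Exon positions were not used here.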

How the data were processed

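RNA from brown adipose tissue was labelled with biotin and hybridised to Affymetrix Mouse Gene 1.0 ST arrays, 8 in all, 4 in each of 2 groups taken from the sample titles. The authors log transformed and quantile normalized the intensities, per the labels' design text, with Affymetrix Power Tools, a tool that the submitters' processing notes also name. The deposited values are log2 intensities rounded to 2 decimals. Summarization, background correction and genome build are not stated there. The other deposited table held identical values (100%). The authors' deposited table also gives a p-value per cluster and a signed fold change score. Student's t-test is the test it names, and it was run here with equal variances.

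Of 25254 clusters, the brightest by mean over the 8 arrays stood for each of 21759 genes. In R 4.3.3, limma 3.58.1 (lmFit, then eBayes, whose prior had 8.87 degrees of freedom) gave two-sided p-values, adjusted by Benjamini and Hochberg's method over all genes, with a threshold of 0.05. Errors beside means are standard deviations. Precision is limited by the number of arrays: over all genes, differences had a median standard error of 0.127. Pairwise correlations used exact permutations (Python 3.11.15). The fit was tested on simulated data.

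The members and lists were chosen with earlier results of these data known. Named genes are the 10 members, the 3 genes with the smallest p of each other list together with any past the threshold, the 3 highest and 3 lowest correlations with Arntl among protein-coding genes above the olfactory percentile, and Ucp1. Dbp, Tef, Hlf, Arntl2, Elovl3, Lep, Nnat, Thra and Ube2n were named afterwards. Alternatives were other normalizations, a filter on dim genes, other variance models, a block for the replicate number, weights per array and handling of clusters, and arrays left out. Symbols of the file were kept, with current names where a list gave them.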

Additional observations from a re-analysis of the deposited data

How the results depend on the processing

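Over 22 alternatives, 0 clock genes passed in every one, and the lowest adjusted p was 0.101 (Nr1d2 after repeated quantile normalization). Arntl, Per1, Per3, Cry1, Cry2, Nr1d1 and Nr1d2 kept their sign throughout, though Cry2 fell to 0.0075 without HFD 4 and Per1 to 0.043 without HFD 1. Clock turned to 0.0075 without NCD 2 and NCD 3, Npas2 to 0.02 there and to 0 without NCD 1 and HFD 3. With 1 array left out Npas2 ran from -0.08 to 0.01 and Per2 from -0.01 to 0.21, the changes of sign coming without NCD 2 or HFD 1 and without HFD 4. Ucp1 stood at 0 after repeated quantile normalization and at 0.10 with equal median and spread. Genes called over all genes, 2 higher and 29 lower, became 0 and 0 with either t-test, 10 and 60 with a variance trend and robust prior, and 6 and 49 without dim genes. Leaving out 1 array gave 1 to 5 higher and 19 to 36 lower. Without NCD 2 and NCD 3 there were 1 higher and 2 lower. Genes called higher were 1 with the mean over clusters, with all clusters tested separately and with median centring, and 4 after cyclic loess. Of the accessory genes 2 passed with a variance trend and robust prior, 1 without dim genes and 0 to 2 with 1 array left out, and their median was 0.185 without NCD 2 and NCD 3. Of the glucocorticoid-responsive genes 0 to 1 passed with 1 array left out. With Cry1 and Cry2 both in the E-box arm, chosen after seeing the data, the arms differed by -0.359. The cause of these moves was not tested.

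With the replicate number as a block, 4 genes were called higher and 32 lower, and 0 clock genes passed. Same-numbered arrays did not deviate together (r from -0.165 to 0.00249), so the numbers were not taken as pairs. Of the 45 correlations 2 passed as deviations from the group means. The filter on dim genes removed 5 clock genes, among them Arntl and Per3. Signal over background limits Arntl, Npas2, Per2, Per3 and Cry2, and 4 arrays a group limit all.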
